A study of Mus musculus with 16 samples.

Results

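The 9 genes described here encode adipokines, hormones and other proteins that fat tissue releases: Adipoq, Lep, Retn, Cfd, Rbp4, Nampt, Agt, Apln and Nrg4. They were chosen by symbol from the 20101 gene entries of the deposited table, and all 9 had an entry and passed the filter on low values. RNA was sequenced from epididymal white adipose tissue (eWAT), visceral fat attached to the epididymis, at 21 weeks of age. The 16 libraries form 4 groups of 4: a high-fat diet (HFD) with 60% fat given from 5 weeks of age to mice labelled KO or WT, and chow with 5% fat given to mice labelled KO or WT. The titles say KO while the genotype field says knockdown of ApoA4, so "KO" and "WT" are label names here. The labels give 4 mice a group, and do not state the strain or how the gene was targeted.

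Adipocytes store fat and also act as endocrine cells. Leptin reports the size of fat stores to the brain, and adiponectin, the most abundant of these hormones in blood, improves insulin sensitivity of liver and muscle. In mice, resistin and adipsin are made largely by adipocytes, while visfatin and apelin are also made by many other cell types. In obesity, adiponectin falls and leptin rises in blood, and the eWAT of mice fed a high-fat diet loses adipocytes and gains macrophages.

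In these data the 9 genes did not move together. With HFD, Cfd, Agt, Retn, Rbp4 and Adipoq fell in both label groups, with log2(FPKM + 1) differences from -5.77 to -2.20. FPKM is the fragment count scaled to transcript length and library size. Nampt fell by much less, and its call in KO-labelled mice ended in several alternative fits. Nrg4 passed the test in WT-labelled mice and narrowly missed it in KO-labelled mice. Lep and Apln did not pass the test in either label group. Set against general adipocyte genes of the same library, most of which fell, Lep was higher on HFD. So were 75.2% of all tested genes in KO-labelled and 32.5% in WT-labelled mice. No adipokine passed the test between the KO and WT labels on either diet.

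The 250 bases upstream of the start site are shown for the 3 genes with the deepest falls, Cfd, Agt and Retn, and for Adipoq and Lep, a pair whose ratio differed between diets. They are RefSeq sequences on GRCm38.p6, 5′ to 3′ on the strand of the gene. Capitals mark matches on either strand to any of 6 short motifs. They are the C/EBP motif TTGCNNAA, the CCAAT box, the nuclear receptor half-site AGGTCA, the TATA box TATAAA, the GC box GGGCGG and the E-box CACGTG.
Cfd, chr10:79890603-79890852, plus strand: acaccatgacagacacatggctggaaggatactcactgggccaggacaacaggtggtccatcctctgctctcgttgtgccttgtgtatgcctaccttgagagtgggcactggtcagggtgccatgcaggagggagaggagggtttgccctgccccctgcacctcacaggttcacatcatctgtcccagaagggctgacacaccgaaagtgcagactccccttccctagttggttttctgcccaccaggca
Agt, chr8:124569707-124569956, minus strand: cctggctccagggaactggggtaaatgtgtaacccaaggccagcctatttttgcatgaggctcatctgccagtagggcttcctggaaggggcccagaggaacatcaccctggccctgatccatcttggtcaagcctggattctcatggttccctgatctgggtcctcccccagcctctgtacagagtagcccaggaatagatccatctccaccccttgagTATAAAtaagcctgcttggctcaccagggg
Retn, chr8:3655520-3655769, plus strand: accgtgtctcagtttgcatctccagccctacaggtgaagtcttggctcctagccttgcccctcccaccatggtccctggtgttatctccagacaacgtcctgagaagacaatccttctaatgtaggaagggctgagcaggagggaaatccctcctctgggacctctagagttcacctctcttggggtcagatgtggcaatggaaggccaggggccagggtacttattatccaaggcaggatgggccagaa
Adipoq, chr16:23146286-23146535, plus strand: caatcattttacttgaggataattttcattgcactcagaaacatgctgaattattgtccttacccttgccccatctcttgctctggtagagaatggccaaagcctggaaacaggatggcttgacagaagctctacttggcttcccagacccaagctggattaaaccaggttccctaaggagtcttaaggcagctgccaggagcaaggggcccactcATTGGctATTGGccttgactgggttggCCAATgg
Lep, chr6:29059971-29060220, plus strand: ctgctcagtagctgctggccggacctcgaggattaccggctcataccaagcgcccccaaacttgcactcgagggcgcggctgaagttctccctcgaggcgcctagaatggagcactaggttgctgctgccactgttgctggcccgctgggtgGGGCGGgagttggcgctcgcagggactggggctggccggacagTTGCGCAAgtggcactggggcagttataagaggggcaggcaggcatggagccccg
The Lep window held 1 C/EBP match at 55 bases before the start site, and 9.56% of the 32851 promoter windows of the same length hold that motif. The Adipoq window held 3 CCAAT matches, against at least 1 in 33.8% of windows. The Agt window held a TATAAA match, a motif in 12.4% of windows, and a GC box match stood in the Lep window, as in 32.7% of all. Neither the Cfd nor the Retn window held a match to any of the 6. Of all windows, 14% hold the half-site and 6.02% the E-box. A match describes letters only and was not set against binding data.

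The genotype labels and the tissue were checked first. Apoa4 RNA stood at 4.93 to 9.63 FPKM in HFD KO and 0 to 0.29 FPKM in HFD WT libraries, and at 1.96 to 5.96 FPKM in chow KO and 0.09 to 0.29 FPKM in chow WT libraries, so the libraries labelled KO held more of the targeted transcript and every direction between labels rests on the labels alone. All 10 adipocyte core markers (Plin1, Plin4, Cidec, Fabp4, Lipe, Pparg, Cebpa, Aqp7, Gpd1 and Acvr1c) were above 0 in every library. Their summed level was 3299 to 13206 FPKM in HFD KO, 5049 to 15448 FPKM in HFD WT, 10909 to 19621 FPKM in chow KO and 19683 to 21290 FPKM in chow WT. The 10 epididymis markers summed to 11126 FPKM in chow KO replicate 2 and to 5438 FPKM in HFD KO replicate 4, to 341 FPKM in HFD KO replicate 2, and summed to at most 51.2 FPKM in the other 13 libraries. Below, the first 3 are called the libraries with epididymal genes, a split by summed level. In HFD KO replicate 2, 6 of the 10 markers were at 0. Chow WT replicate 1, the library at 51.2 FPKM, had 1 marker at 0. Mean log2(FPKM + 1) of the markers was 1.68 in HFD KO replicate 2 and 1.61 in chow WT replicate 1. Total FPKM over gene entries ran from 413167 to 468186 per library. Read counts are not in the table, so the depth behind each value is unknown. Taking the smallest step of the circular RNA entries as 1 read, relative depth ran from 0.752 to 1.42 of the mean. It was 0.752 to 0.875 in chow KO, 0.923 to 1.02 in chow WT, 0.884 to 1.42 in HFD KO and 1.03 to 1.22 in HFD WT. This estimate thus differed between groups, and its part in the values was not tested.

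**Figure D1:**
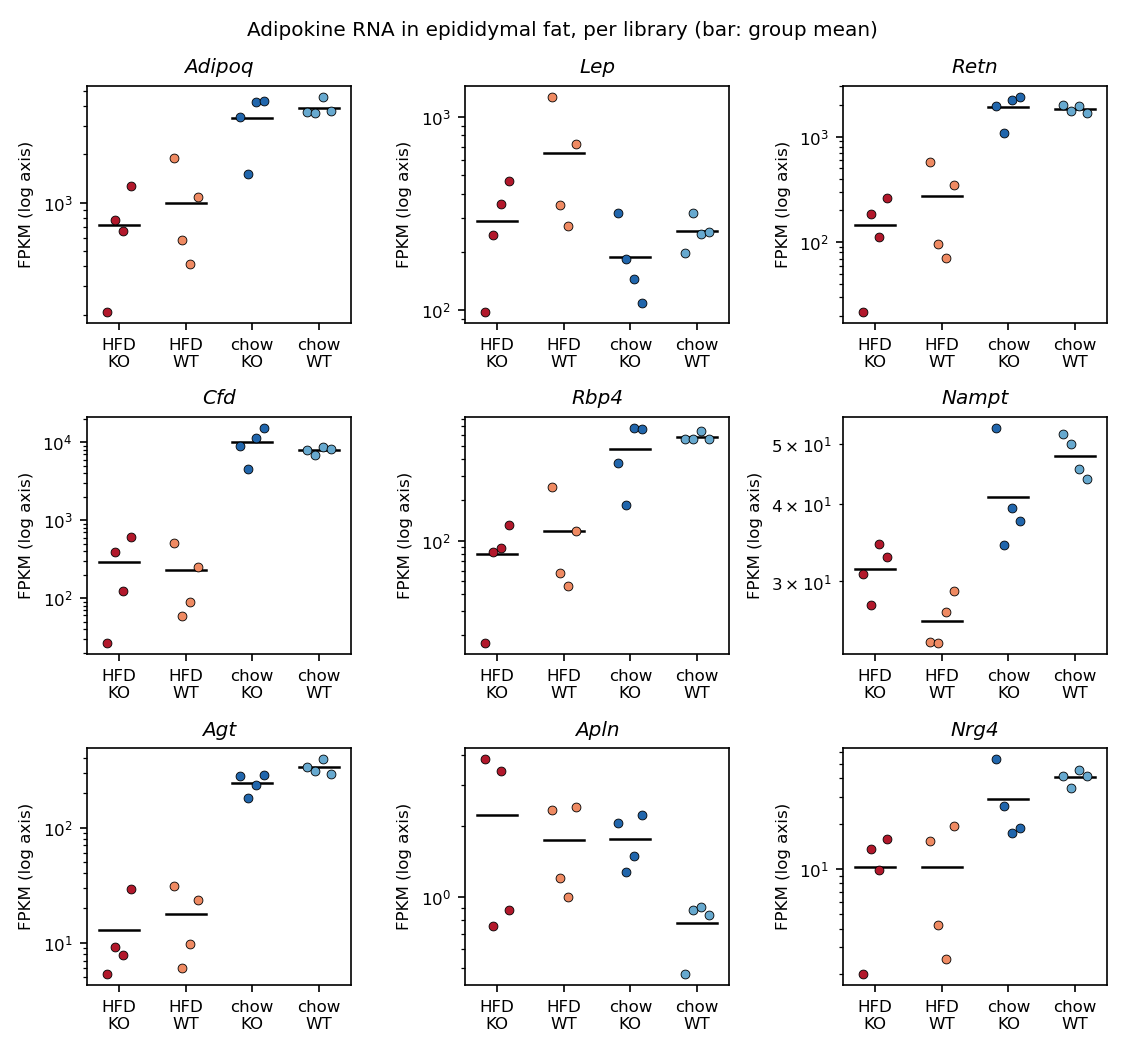
FPKM of each adipokine (log axis) in the 16 libraries, by group; each point is 1 library and each bar a group mean (n = 4). Cfd, Agt, Retn, Rbp4 and Adipoq sit lower in all HFD libraries than in all chow libraries of the same label, and Lep overlaps between diets.

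Adipokines made up a larger share of summed gene FPKM on chow than on HFD. The 9 genes together took 0.0929% to 0.607% of all gene FPKM in HFD KO and 0.211% to 1.11% in HFD WT libraries, against 1.73% to 5.02% in chow KO and 2.96% to 3.64% in chow WT. Cfd was 6.41% to 22.4% of the 9-gene FPKM in HFD KO and 5.03% to 11.04% in HFD WT libraries, against 58.2% to 66.2% in chow KO and 50.6% to 55.3% in chow WT, where it was the largest part. In HFD KO 215 genes and in HFD WT 278 genes had a higher mean FPKM than Cfd, against 3 in chow KO and 3 in chow WT.

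FPKM is scaled to length, so levels may be ranked between genes. On chow both label groups had the order Cfd, Adipoq, Retn, Rbp4, Agt, Lep, Nampt, Nrg4, Apln. In chow WT the ranges of neighbours overlapped only for Agt with Lep and for Nampt with Nrg4. In chow KO they also overlapped for Adipoq with Retn and for Rbp4 with Agt. On HFD, Adipoq led and Lep came second in both label groups, Agt dropped below Nampt, and the order of Cfd and Retn differed between labels. In HFD WT only Rbp4 with Nampt and Nrg4 with Apln had ranges that did not overlap, and in HFD KO every pair of neighbours overlapped.

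The first comparison asks what high-fat feeding did to these genes within each label. In KO-labelled mice 6 of the 9 adipokines fell and 0 rose, where 15.3% of all 12667 tested genes were called lower, 23.5% higher and 38.9% in either direction. In WT-labelled mice 7 fell and 0 rose, where 17.2% of all tested genes were called lower, 24.6% higher and 41.9% in either direction. The median log2 difference of the 9 was -2.37 in KO-labelled mice and -2.23 in WT-labelled mice, against 0.08 (KO-labelled) and 0.06 (WT-labelled) over all tested genes. A call is a limma adjusted p under 0.05 over all tested genes. Every HFD library was below every chow library for 6 members in KO-labelled mice, where that held for 11.3% of tested genes, and for 7 in WT-labelled mice, where it held for 20.7%. Without the 3 libraries with epididymal genes, all of them KO-labelled, the KO-labelled differences were larger, at -7.63 for Cfd, -5.43 for Retn, -5.16 for Agt, -3.78 for Rbp4, -3.43 for Adipoq and -2.25 for Nrg4, with the largest adjusted p at 0.0230. Of the HFD KO libraries, that fit keeps only replicates 1 and 3. Mean log2(FPKM + 1) of the adipocyte core markers was 6.46 and 7.67 in these, and 7.73 and 8.13 in the left-out replicates 2 and 4. The part of epididymal RNA and of marker level in the larger differences was not tested. In whole tissue, fewer adipocytes and less RNA per adipocyte cannot be told apart.

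Cfd encodes adipsin (complement factor D), the serine protease that activates the alternative complement pathway by cleaving factor B. In KO-labelled mice it stood at 26.4, 387, 125 and 611 FPKM on HFD, against 9031, 4582, 11378 and 15338 FPKM on chow. In WT-labelled mice it stood at 504, 59.6, 88.3 and 254 FPKM on HFD, against 7994.5, 6789, 8658 and 8159 FPKM on chow. No HFD library came near a chow library, and chow KO replicate 4 was the highest of all 16. The log2 difference was -5.77 in KO-labelled mice (SE 0.82, adjusted p = 0.000198) and -5.60 in WT-labelled mice (SE 0.82, adjusted p = 0.000165), with mean FPKM on HFD 35.1-fold lower in KO-labelled and 34.9-fold lower in WT-labelled mice.

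Agt encodes angiotensinogen, the precursor of angiotensin peptides. It stood at 5.33, 9.28, 7.83 and 29.2 FPKM in HFD KO libraries, against 282, 180, 233 and 287 FPKM in chow KO. In WT-labelled mice the values were 31.1, 5.98, 9.76 and 23.7 FPKM on HFD, against 334, 313, 396 and 295 FPKM on chow. The diets were far apart in both label groups, and HFD KO replicate 4 stood well above the other 3 libraries of its group. The log2 difference of Agt was -4.40 in KO-labelled mice (SE 0.47, adjusted p = 2.92e-05) and -4.42 in WT-labelled mice (SE 0.47, adjusted p = 1.77e-05), the smallest adjusted p of the 9 genes in both.

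Retn encodes resistin, a cysteine-rich hormone that opposes insulin action in mice. It stood at 21.7, 185.5, 111 and 263 FPKM in HFD KO, against 1966, 1073, 2207 and 2379 FPKM in chow KO. It stood at 570, 96.0, 71.4 and 351 FPKM in HFD WT, against 1991, 1739, 1950 and 1661 FPKM in chow WT. Every HFD library was lower than every chow library. The log2 difference was -4.11 in KO-labelled mice (SE 0.70, adjusted p = 0.000696) and -3.24 in WT-labelled mice (SE 0.70, adjusted p = 0.00228). Retnla, a related gene made by alternatively activated macrophages in mice, also fell, by 3.95 in KO-labelled mice (adjusted p = 0.00160) and by 3.49 in WT-labelled mice (adjusted p = 0.00277). Retnlg, the neutrophil member, had differences of 1.57 in KO-labelled mice (adjusted p = 0.0516) and -1.29 in WT-labelled mice (adjusted p = 0.0998).

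Adipoq encodes adiponectin, which circulates as multimers built on a collagen-like domain. It stood at 207, 779, 663 and 1262 FPKM in HFD KO, against 3441, 1515, 4271 and 4334 FPKM in chow KO. In WT-labelled mice it stood at 1909, 588, 413 and 1089 FPKM on HFD, against 3656, 3620, 4573 and 3737 FPKM on chow. Within a label the diets did not overlap, though chow KO replicate 2, the library richest in epididymal genes, came closest to the HFD values. The log2 difference was -2.37 in KO-labelled mice (SE 0.54, adjusted p = 0.00366) and -2.20 in WT-labelled mice (SE 0.54, adjusted p = 0.00484). 

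Rbp4, the plasma carrier of retinol, followed Adipoq closely. It stood at 17.4, 82.5, 87.9 and 131 FPKM in HFD KO, against 374, 185, 683 and 667 FPKM in chow KO. It stood at 248, 57.7, 46.2 and 119 FPKM in HFD WT, against 569, 563, 643 and 567 FPKM in chow WT. Diets did not overlap within a label. The log2 difference was -2.70 in KO-labelled mice (SE 0.60, adjusted p = 0.00328) and -2.62 in WT-labelled mice (SE 0.60, adjusted p = 0.00332).

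Nrg4 encodes neuregulin 4, an ErbB4 ligand that brown and white fat release and that acts on the liver. It stood at 1.99, 13.6, 9.77 and 15.7 FPKM in HFD KO, against 54.0, 26.2, 17.3 and 18.6 FPKM in chow KO. It stood at 15.3, 4.20, 2.52 and 19.3 FPKM in HFD WT, against 41.4, 34.7, 45.4 and 41.2 FPKM in chow WT. It fell in WT-labelled mice (log2 difference -2.23, SE 0.59, adjusted p = 0.00728), while the difference of -1.52 in KO-labelled mice missed the threshold (SE 0.59, adjusted p = 0.0512), although those groups did not overlap either. The interaction was 0.71 (adjusted p = 0.855), so the labels were not shown to differ. That KO-labelled difference passed the threshold with median-of-ratios scaling, with quantile normalization, with a filter of mean FPKM of at least 5 and without the 3 libraries with epididymal genes. It ran from -1.80 without HFD KO replicate 4 (adjusted p = 0.0301) to -0.97 without HFD KO replicate 1 (adjusted p = 0.176), and passed also without HFD KO replicate 2. Exons of Nrg4 overlap Fbxo22 and the pseudogene Gm15625 on the opposite strand, and no source used here states whether counting was by strand, so their reads can be part of the value. The other 8 adipokines share no exon with another gene in GENCODE M21.

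Nampt encodes nicotinamide phosphoribosyltransferase, the rate-limiting enzyme that salvages NAD from nicotinamide, also described outside cells as visfatin. It stood at 30.8, 27.5, 34.5 and 32.8 FPKM in HFD KO, against 53.0, 34.3, 39.4 and 37.5 FPKM in chow KO. It stood at 24.0, 23.9, 26.8 and 28.9 FPKM in HFD WT, against 51.8, 49.9, 45.6 and 43.9 FPKM in chow WT. The WT-labelled diets were clearly apart, while HFD KO replicate 3 just passed chow KO replicate 2. Nampt fell by 0.86 in WT-labelled mice (SE 0.13, adjusted p = 0.000197) and by 0.36 in KO-labelled mice (SE 0.13, adjusted p = 0.0374). The KO-labelled call ended without the 3 libraries with epididymal genes (adjusted p = 0.0576), with scaling to a constant sum (adjusted p = 0.0589), with only the groups compared in the fit (adjusted p = 0.123) and without any of HFD KO replicates 1 and 2 and chow KO replicates 1 and 3 (adjusted p from 0.0610 to 0.117), where leaving out chow KO replicate 1 shrank the fall to 0.24. The interaction of Nampt was 0.50 (SE 0.18, adjusted p = 0.330).

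Lep encodes leptin, the satiety hormone of fat. It stood at 97.5, 245, 356 and 463 FPKM in HFD KO, against 316, 183, 145 and 109 FPKM in chow KO. It stood at 1267, 348, 271 and 720 FPKM in HFD WT, against 198, 319, 249 and 254 FPKM in chow WT. The diets overlapped in both label groups: HFD KO replicate 1 was the lowest library of all 16 and HFD WT replicate 1 the highest. The log2 difference was 0.52 in KO-labelled mice (95% interval -0.56 to 1.61, adjusted p = 0.433) and 1.10 in WT-labelled mice (95% interval 0.02 to 2.19, adjusted p = 0.0924). In KO-labelled mice it ran from 0.23 without HFD KO replicate 4 to 0.98 without HFD KO replicate 1, and was 0.30 without chow KO replicate 4 and 0.81 without chow KO replicate 1. In WT-labelled mice it ran from 0.70 without HFD WT replicate 1 to 1.44 without HFD WT replicate 3, where it passed the threshold (adjusted p = 0.0455).

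Apln encodes apelin, the ligand of the G protein-coupled receptor APJ, made by adipocytes and endothelial cells. It was the least abundant member, at 3.87, 0.75, 3.42 and 0.88 FPKM in HFD KO, against 2.07, 1.28, 1.49 and 2.24 FPKM in chow KO. It stood at 2.34, 1.21, 1 and 2.41 FPKM in HFD WT, against 0.47, 0.88, 0.91 and 0.84 FPKM in chow WT. HFD KO libraries split into a high and a low pair, the low pair being 2 of the libraries with epididymal genes. All HFD WT libraries exceeded all chow WT ones, as for 26.1% of tested genes. The log2 difference was 0.08 in KO-labelled mice (SE 0.31, adjusted p = 0.857; -0.081 with quantile normalization) and 0.59 in WT-labelled mice (SE 0.31, adjusted p = 0.137). Without the 3 libraries with epididymal genes the KO-labelled difference was 0.67 (adjusted p = 0.0337), and with only the groups compared in the fit the WT-labelled difference passed (adjusted p = 0.0374). The 8 endothelial markers summed to 71.3 to 118 FPKM in HFD KO, 49.2 to 176 FPKM in HFD WT, 48.5 to 104 FPKM in chow KO and 74.2 to 131 FPKM in chow WT, and none of them was called with diet. Their part in the Apln values was not tested.

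**Figure D2:**
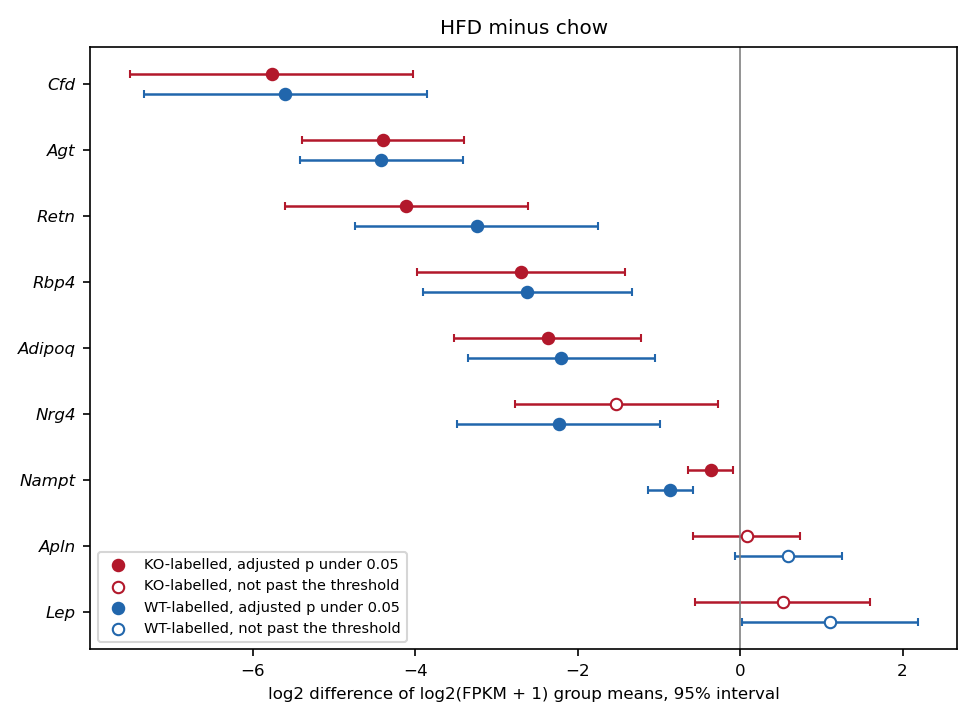
HFD minus chow difference of mean log2(FPKM + 1) per adipokine with its 95% interval, for KO-labelled and WT-labelled mice; filled points passed an adjusted p of 0.05. Cfd, Agt and Retn lie farthest to the left, and Lep and Apln lie to the right of 0 with intervals near or across it.

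The balance between adipokines shifted with diet. The ratio of Lep to Adipoq FPKM was 0.315 to 0.536 in HFD KO and 0.592 to 0.664 in HFD WT libraries, against 0.0250 to 0.121 in chow KO and 0.0542 to 0.0882 in chow WT. The ratio of Cfd to Adipoq was 0.128 to 0.498 in HFD KO and 0.101 to 0.264 in HFD WT, against 2.62 to 3.54 in chow KO and 1.88 to 2.19 in chow WT. On both ratios all 8 HFD libraries lay on one side of all 8 chow libraries. These ratios were chosen with the values known and carry no test. Among HFD libraries Adipoq spanned 6.09-fold from lowest to highest in KO and 4.63-fold in WT, a wider span than that of its ratio to Lep.

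Cell type markers are given beside the shares of all tested genes called higher and lower, 23.5% and 15.3% in KO-labelled mice and 24.6% and 17.2% in WT-labelled mice. Of the 10 adipocyte core markers, 6 fell and 0 rose in KO-labelled mice (median log2 difference -1.29), and 7 fell and 1 rose in WT-labelled mice (median -1.24). The one that rose was Gpd1, the glycerol-3-phosphate dehydrogenase of triglyceride synthesis, at 338 ± 151 FPKM in HFD WT and 94.8 ± 10.1 FPKM in chow WT (SD, n = 4 each). Of 10 macrophage markers, 9 rose and 1 fell in each label group, and their summed level was 2365 to 8263 FPKM in HFD KO and 1877 to 9472 FPKM in HFD WT, against 707 to 858 FPKM in chow KO and 887 to 945 FPKM in chow WT. Of 8 progenitor and fibroblast markers, 4 rose and 0 fell in KO-labelled mice and 4 rose and 1 fell in WT-labelled mice. Of 6 mesothelial markers, 3 fell in KO-labelled mice and 4 in WT-labelled mice, and 0 rose. The part of these shifts in the adipokine values was not tested.

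A second fit therefore set each gene against the mean log2(FPKM + 1) of the 10 core markers in the same library. On that scale a difference shows unequal change relative to those markers, some of which changed among themselves. In KO-labelled mice 5 adipokines were lower and 2 higher on HFD, where 0.655% of all tested genes were called lower, 75.2% higher and 75.9% in either direction. In WT-labelled mice 6 were lower and 2 higher, where 1.58% of all tested genes were lower, 32.5% higher and 34.1% in either direction. Cfd, Agt, Retn, Rbp4 and Adipoq were among the lower ones in both label groups.

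Relative to the core markers, Cfd had an HFD minus chow difference of -4.54 in KO-labelled mice (SE 0.51, adjusted p = 9.76e-06) and -4.74 in WT-labelled mice (SE 0.51, adjusted p = 6.50e-06). In KO-labelled mice the relative difference was -3.18 for Agt, -2.88 for Retn, -1.47 for Rbp4 and -1.14 for Adipoq, and in WT-labelled mice it was -3.56, -2.38, -1.76 and -1.34 for the same genes, with the largest adjusted p at 0.00713. Nrg4 had -1.38 in WT-labelled mice (adjusted p = 0.0128; 0.0554 without HFD WT replicate 3), and its relative difference in KO-labelled mice was -0.30 (adjusted p = 0.448). Nampt had relative differences of 0.86 (adjusted p = 0.0533) in KO-labelled and -0.0038 (adjusted p = 0.993) in WT-labelled mice.

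Lep was higher relative to the core markers by 1.75 in KO-labelled mice (SE 0.33, adjusted p = 0.000986) and by 1.96 in WT-labelled mice (SE 0.33, adjusted p = 0.000622). Its relative level ran from 0.16 to 0.81 log2 units over the marker mean in HFD KO and 0.99 to 1.55 in HFD WT, against -1.97 to -0.75 in chow KO and -1.12 to -0.33 in chow WT, with no overlap between diets. Apln had relative differences of 1.31 in KO-labelled mice (adjusted p = 0.0273) and 1.45 in WT-labelled mice (adjusted p = 0.0356), beside 0.08 and 0.59 without setting it against the markers. Since 75.2% of all tested genes were called higher on this scale in KO-labelled mice and 32.5% in WT-labelled mice, the Apln and Lep calls are not particular to these genes. Both Apln calls changed with single libraries. The KO-labelled one ended without HFD KO replicate 1, where the difference shrank to 0.71 (adjusted p = 0.129), and also without HFD KO replicate 3 or chow KO replicate 1 or 3. It grew to 2.47 (adjusted p = 0.000471) without the 3 libraries with epididymal genes, which leaves HFD KO replicates 1 and 3. The WT-labelled one ended without any of HFD WT replicates 2 and 3 and the 4 chow WT replicates (adjusted p from 0.0638 to 0.115).

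**Figure D3:**
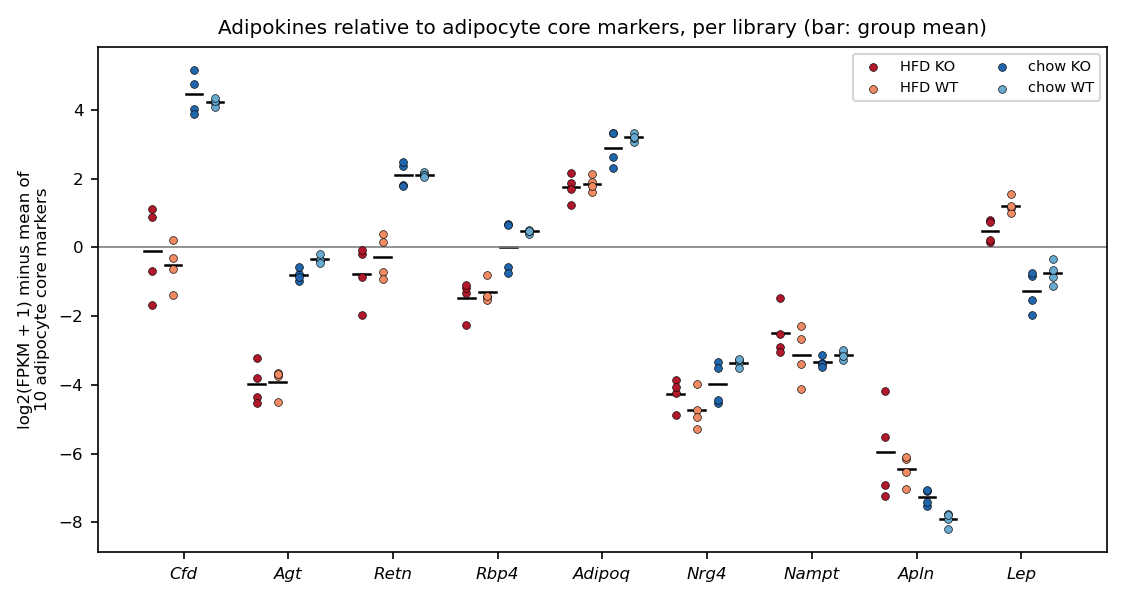
log2(FPKM + 1) of each adipokine minus the mean of 10 adipocyte core markers in the same library, by group; points are libraries and bars group means (n = 4). Lep lies above 0 in all 8 HFD libraries and below 0 in all 8 chow libraries, while Cfd and Retn lie far lower on HFD.

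HFD WT replicate 1 had the highest core marker mean of the HFD libraries, 8.76, inside the chow WT range of 8.65 to 8.82. The markers behind that mean were uneven. Plin1, the lipid droplet coat protein, was 583 FPKM, against 428 to 584.5 FPKM in chow WT, and Lipe also lay in the chow WT range. Gpd1, at 483 FPKM against at most 106 FPKM in chow WT, and Aqp7 lay over it, while Plin4, Cidec, Fabp4, Pparg, Cebpa and Acvr1c lay under the lowest chow WT library. This library held 504 FPKM of Cfd, 31.1 FPKM of Agt, 570 FPKM of Retn and 1909 FPKM of Adipoq, each also under the lowest chow WT library. Its Lep, 1267 FPKM, was the highest of the 16. It was singled out after its values were seen.

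**Figure D4:**
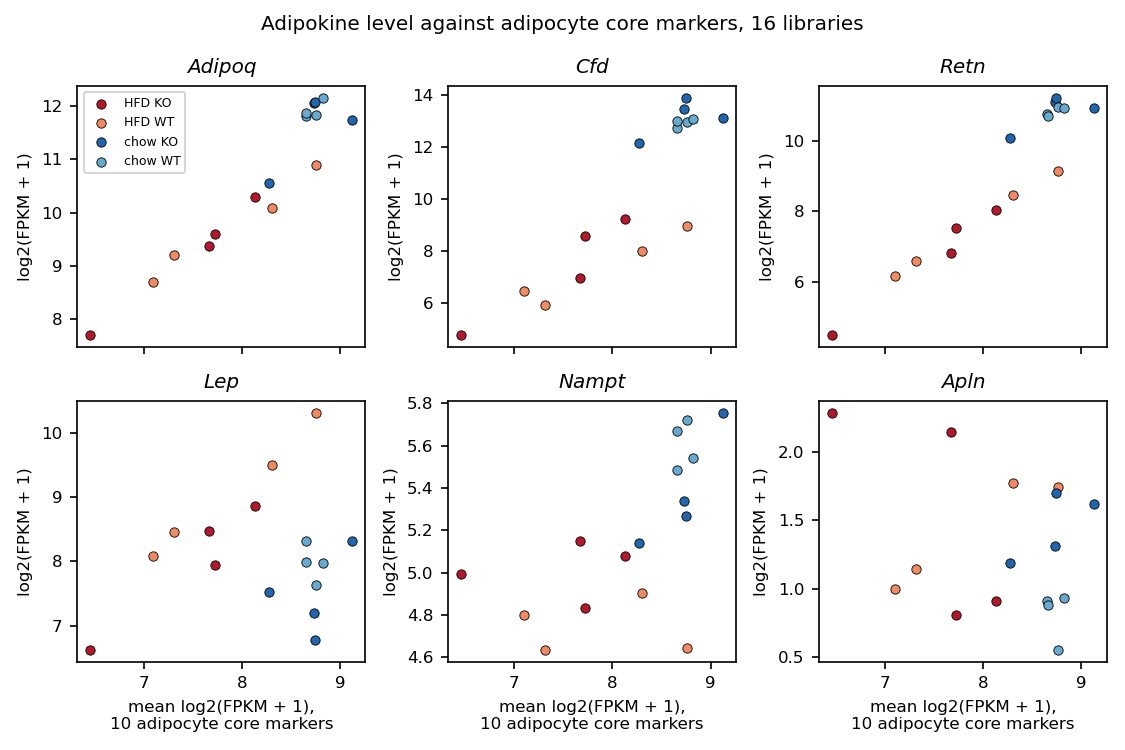
log2(FPKM + 1) of 6 adipokines against the mean log2(FPKM + 1) of 10 adipocyte core markers in the 16 libraries, coloured by group. Adipoq, Cfd and Retn rise with the marker mean within the HFD groups but lie lower there than in chow libraries with a like marker mean, such as HFD WT replicate 1 at 8.76, while Lep lies higher and Nampt and Apln show little relation.

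Pooled over the 4 groups, deviations of 7 adipokines from their group means were positively correlated. This did not hold within every group. In chow KO replicates 1 to 4, Lep was 316, 183, 145 and 109 FPKM, while Cfd was 9031, 4582, 11378 and 15338 FPKM. Correlations of deviations from the 4 group means over the 16 libraries, which share library and diet and are given as a description, ran from 0.658 to 0.983 over the 21 pairs among Adipoq, Lep, Retn, Cfd, Rbp4, Agt and Nrg4. With the core marker mean these 7 had correlations from 0.863 (Agt) to 0.967 (Retn). Pairs with Nampt or Apln ran from -0.331 to 0.303, and Nampt had a correlation of 0.258 and Apln of -0.0431 with the core markers. Among tested genes with mean FPKM of at least 5, the 2 most alike by this measure were Sik2 (0.984) and Ctdspl (0.983) for Adipoq, and Sik2 (0.983) and Adipoq itself (0.983) for Rbp4. They were Fbxo21 (0.985) and Ces1d (0.983) for Cfd, Lgals12 (0.981) and Tmem45b (0.980) for Retn, and Napepld (0.958) and Tmem216 (0.943) for Agt. For Lep they were Pank3 (0.963) and Lpgat1 (0.952), and for Nrg4 Prkce (0.976) and Gpat3 (0.960). Apln was most like Abca1 (0.933) and Gda (0.931), and Nampt like Rhot1 (0.861) and Fbh1 (0.811). All these genes were picked as the highest from 8783 candidate genes, so their values are high by selection and carry no test.

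The comparison of labels asks whether the KO and WT labels differed. On HFD, 0 of 9 adipokines passed the test, as against 0.0316% of all tested genes, and on chow 0 of 9, as against 1.41%. At an unadjusted p under 0.05 there was 1 adipokine on HFD, where 11.8% of tested genes passed, and 0 on chow, where 14.7% did. With 4 libraries a group the intervals were wide. Lep had the largest difference on HFD, with 97.5, 245, 356 and 463 FPKM in KO-labelled mice, against 1267, 348, 271 and 720 FPKM in WT-labelled mice (log2 difference -1.11, 95% interval -2.19 to -0.03, adjusted p = 0.413). Its ranges overlapped. Other differences on HFD were -0.87 for Retn (95% interval -2.37 to 0.63), -0.55 for Rbp4, -0.47 for Adipoq, -0.44 for Agt, 0.06 for Cfd, 0.09 for Nrg4, 0.12 for Apln and 0.27 for Nampt (adjusted p from 0.432 to 0.987). Leaving out 1 library moved Lep to between -1.44 and -0.66, Retn to between -1.35 and -0.13 and Agt to between -0.91 and -0.098, with the smallest differences of Lep and Retn without HFD KO replicate 1 and that of Agt without HFD WT replicate 1. Signs for Adipoq, Cfd, Rbp4, Nrg4 and Apln turned in at least 1 fit without a library, and those of Cfd, Nrg4 and Apln also under another scaling or without the 3 libraries with epididymal genes. Relative to the core markers, 0 of 9 passed the test between labels on HFD, as against 0.00789% of tested genes. On that scale Lep had a difference of -0.74 (SE 0.33, adjusted p = 0.618). Its relative level ran from 0.16 to 0.81 in HFD KO and from 0.99 to 1.55 in HFD WT. How many other genes lay apart in this way was not counted.

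On chow, Agt was lower in all 4 KO-labelled libraries (180 to 287 FPKM) than in all 4 WT-labelled ones (295 to 396 FPKM), and Apln was higher in all 4 (1.28 to 2.24 FPKM) than in the WT-labelled ones (0.47 to 0.91 FPKM), where such a gap was seen for 6.25% of tested genes downward and 8.94% upward. The log2 differences, -0.46 for Agt (adjusted p = 0.699) and 0.63 for Apln (adjusted p = 0.362), did not pass. The coefficient of variation in chow KO was 44.6% for Cfd, 38.8% for Adipoq, 50.6% for Rbp4, 58.9% for Nrg4, 30.5% for Retn, 48.0% for Lep, 20.1% for Nampt, 20.3% for Agt and 25.9% for Apln. In chow WT it was 10.04%, 11.6%, 6.57%, 10.8%, 8.72%, 19.5%, 7.71%, 13.2% and 26.5% for the same genes, lower for each but Apln. Chow KO replicate 2, which holds epididymal RNA, was the lowest of its group for Adipoq, Cfd, Retn, Rbp4, Agt, Nampt and Apln, but not for Lep or Nrg4. For the interaction of diet and label, 0 of 9 passed, as against 0.292% of tested genes, and at an unadjusted p under 0.05 there was 1, Nampt, as against 10.1%.

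**Figure D5:**
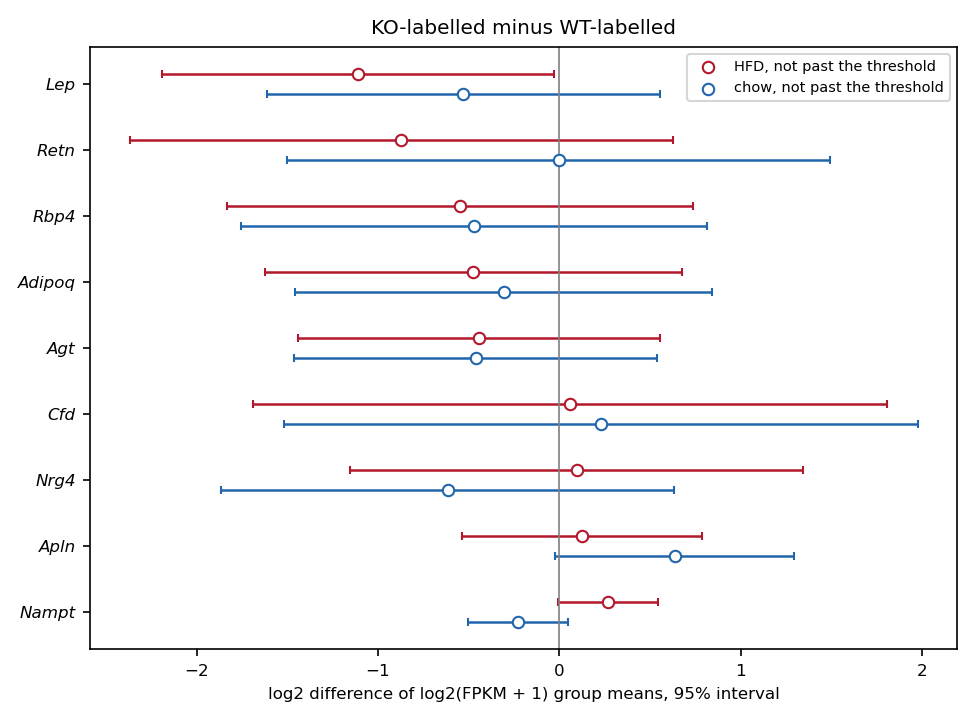
KO-labelled minus WT-labelled difference of mean log2(FPKM + 1) per adipokine with its 95% interval, on HFD and on chow. No point passed the threshold, and every interval but that of Lep on HFD includes 0.

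Of 14 tested receptors and partners of the adipokines, 4 rose and 1 fell in KO-labelled mice, where 38.9% of all tested genes were called, and 5 rose and 3 fell in WT-labelled mice, where 41.9% were. The lists are described by counts, and nothing particular to a list is read from them. Adipor2, the adiponectin receptor of liver and fat, stood at 99.05 ± 30.01 FPKM in HFD KO and 303 ± 87.2 FPKM in chow KO, and at 124 ± 41.1 FPKM in HFD WT and 345 ± 29.9 FPKM in chow WT (SD, n = 4 each). It fell by 1.62 in KO-labelled mice (adjusted p = 0.000670) and by 1.52 in WT-labelled mice (adjusted p = 0.000687). C3ar1, the receptor for complement C3a on macrophages, rose by 3.50 in KO-labelled mice (adjusted p = 8.22e-05) and by 3.09 in WT-labelled mice (adjusted p = 0.000113). C5ar2, a second complement peptide receptor, rose by 2.02 (KO) and 2.01 (WT), and Cap1, an actin regulator reported in human cells to bind resistin, by 1.60 (KO) and 1.09 (WT). Rbpr2 (RefSeq symbol Stra6l), a membrane receptor for retinol-binding protein, rose by 1.43 (KO) and 1.81 (WT), with a mean of 2.16 FPKM in HFD KO and 0.150 FPKM in chow KO, and 3.11 FPKM in HFD WT and 0.102 FPKM in chow WT.

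Aplnr, the apelin receptor, was 7.06 ± 4.28 FPKM in HFD KO and 3.33 ± 1.81 FPKM in chow KO (adjusted p = 0.160), and 5.38 ± 3.09 FPKM in HFD WT and 0.938 ± 0.373 FPKM in chow WT (log2 difference 1.57, adjusted p = 0.0125). Lepr, the leptin receptor, averaged 1.36 FPKM in HFD KO and 0.775 FPKM in chow KO, and 0.708 FPKM in HFD WT and 0.843 FPKM in chow WT, and did not pass. C3 and Cfb, the complement proteins that adipsin acts with, had differences from 0.14 to 0.29 and did not pass (adjusted p from 0.198 to 0.773). Stra6, Erbb4, Agtr1b, Agtr2 and Mas1 lay under the filter.

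In the renin-angiotensin list, 7 members were tested, and 2 rose and 2 fell in KO-labelled mice (38.9% of all tested genes called) and 2 rose and 1 fell in WT-labelled mice (41.9% called). Atp6ap2, the prorenin receptor, rose by 0.80 (KO) and 0.75 (WT), and Prep, a prolyl peptidase, by 0.57 (KO) and 0.48 (WT). Lnpep, an aminopeptidase that binds angiotensin IV, fell by 0.79 (KO) and 0.46 (WT), and Enpep, aminopeptidase A, fell by 1.62 in KO-labelled mice (adjusted p = 0.0156). Ren1 lay under the filter, and Ace, which makes angiotensin II, averaged 34.3 FPKM in HFD KO and 46.9 FPKM in chow KO, and 25.4 FPKM in HFD WT and 34.7 FPKM in chow WT, without passing.

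Of 12 genes of NAD synthesis and use, 1 rose and 7 fell in KO-labelled mice, where 23.5% of all tested genes rose and 15.3% fell, and 1 rose and 4 fell in WT-labelled mice, where 24.6% rose and 17.2% fell. Nmnat3, the mitochondrial nicotinamide mononucleotide adenylyltransferase, fell by 0.81 (KO) and 1.09 (WT). Naprt, which makes NAD from nicotinic acid, fell by 0.68 (KO) and 0.40 (WT), and Sirt3, the mitochondrial NAD-dependent deacetylase, by 0.97 (KO) and 1.18 (WT). Parp1, the DNA repair enzyme that consumes NAD, rose by 0.76 (KO) and 0.50 (WT). Of 8 genes that fold, modify or release adiponectin, 6 rose and 1 fell in KO-labelled mice, where 23.5% of all tested genes rose, and 4 rose and 1 fell in WT-labelled mice, where 24.6% rose. The collagen lysyl hydroxylases Plod1 (1.17 in KO, 1.07 in WT) and Plod2 (1.59 in KO, 1.18 in WT) and the oxidase Ero1a (0.56 in KO, 0.49 in WT) rose, while Gstk1, which promotes adiponectin assembly, fell by 1.28 (KO) and 1.11 (WT). These lists also hold genes that many cell types use.

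Other secreted products of fat were mixed. Of 26 tested, 7 rose and 3 fell in KO-labelled mice (38.9% of all tested genes called) and 5 rose and 4 fell in WT-labelled mice (41.9% called), with medians of 0.17 (KO) and 0.20 (WT). Saa3, an acute-phase protein, rose by 4.15 (KO) and 3.48 (WT), Metrnl, a secreted regulator of fat browning, by 2.04 (KO) and 2.01 (WT), and C1qtnf5 by 1.43 (KO) and 1.65 (WT). Vegfa, the endothelial growth factor, fell by 1.68 (KO) and 2.29 (WT), and C1qtnf12, an insulin-sensitizing relative of adiponectin, by 1.43 (KO) and 1.58 (WT). Ccdc80 stood at 276 ± 98.3 FPKM in HFD WT and 909 ± 26.4 FPKM in chow WT (log2 difference -1.79, adjusted p = 0.000243). Between labels on chow, 2 of the 26 were called, both lower in KO-labelled mice, where 1.41% of all tested genes were called. Sfrp5, a secreted Wnt antagonist, was among them, at 14.1 ± 5.25 FPKM in chow KO and 106 ± 13.1 FPKM in chow WT (adjusted p = 0.0342). No other list described here had a member past the threshold between labels or in the interaction.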

How the data were processed

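The authors' deposited table gives FPKM per gene and library, rounded to 2 decimals. The submitters' processing notes name STAR 2.7 and the builds GRCm38.p6 and mm10; they name no FPKM tool, annotation, filter or strand setting. Libraries were matched to groups by titles. Circular RNA entries (14408) were left out. The filter kept 12667 of 20101 genes (FPKM 1 or more in 4 or more libraries), leaving 7434 out.

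Values were taken as log2(FPKM + 1), so fold changes of low genes are understated, and tested by limma (3.58.1, R 4.3.3) on 4 group means over all 16 libraries, empirical Bayes with a variance trend, Benjamini-Hochberg adjustment over all tested genes. The fit was run on simulated data of independent normal values with 1 SD per gene. That simulation holds neither unequal spread between groups nor correlated genes, so it cannot judge the fit on either. SDs cover the spread between the 4 libraries of a group. SEs and intervals come from the fit, with 1 moderated variance per gene pooled over the 4 groups. A gene therefore has the same SE in each comparison of groups, even where the groups spread unequally. Depth is not recoverable from gene FPKM.

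The adipokines, lists and tests were chosen with earlier results of these data known. Genes named are the 9 adipokines, up to 4 called members per list with the smallest p, the 2 genes most like each adipokine, and Apoa4; further list members were named after their values were seen. Symbols, positions and promoters are from RefSeq on GRCm38.p6, and overlaps from GENCODE M21. Some list members are not reported here.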

Additional observations from a re-analysis of the deposited data

Results flagged for a closer look

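Each adipokine in each group gave 36 sets of 4 values, and 4 sets held a library whose gap to its nearest neighbour passed Dixon's critical value. Chance alone marks about 1 set in 20. The sets share libraries and hold correlated genes, so the count cannot be judged against that rate. Chow WT replicate 3 stood apart for Adipoq, at 4572.84 FPKM, and for Rbp4, at 643.11 FPKM, both above the other 3 libraries. HFD KO replicate 4 stood above its group for Agt, at 29.18 FPKM, and is one of the libraries with epididymal genes. Chow WT replicate 1 stood below its group for Apln, at 0.47 FPKM.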

How the results depend on the processing

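The 13 counts of calls were recomputed under 261 alternative values and 243 of them stayed within 1.5 times; no count of called adipokines left that range. Single adipokine values, 1046 over 55 results, kept direction and side of the threshold in 973, lost the call in 24, gained one in 14 and turned sign in 35. Over all genes, KO minus WT on HFD had 4 calls, and 7 with median-of-ratios scaling, 8 with quantile normalization, 0 with mean FPKM of at least 5, 2 with only the groups compared, 19 without the 3 libraries with epididymal genes, and 3 to 10 leaving out 1 library. KO minus WT on chow had 178, and 115 with the replicate block, 418 with only the groups compared and 55 to 159 leaving out 1 library. The interaction had 37, and 18 with the replicate block and 12 to 46 leaving out 1 library.

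Replicate numbers were not taken as pairs. Of 24 same-numbered pairs, 8 had deviations correlated above 0.1 (range -0.63 to 0.367). Pairs of unlike number were not set beside them, so these values cannot exclude a pairing. The replicate block changed no adipokine call but that of Apln relative to core markers in WT-labelled mice (1.45, adjusted p = 0.0546).

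Signs turned for KO minus WT on HFD in Cfd (-0.038 with median-of-ratios, -1.47 without the 3 libraries, -0.56 to 0.93 leaving out 1), Nrg4 (-0.046 with quantile, -0.64 without the 3, -0.35 to 0.65 leaving out 1), Apln (-0.17 with quantile, -0.13 to 0.37 leaving out 1), Adipoq (-0.83 to 0.041) and Rbp4 (-0.89 to 0.059). On chow they turned in Retn (0.024 with constant sum, 0.086 with quantile, 0.25 without the 3, -0.13 to 0.25 leaving out 1), Adipoq (0.042 without the 3, -0.46 to 0.042) and Cfd (-0.016 to 0.56). HFD minus chow of Apln in KO-labelled mice was -0.081 with quantile and -0.17 to 0.32 leaving out 1, and Nampt relative to core markers in WT-labelled mice ran from -0.28 to 0.33. The cause was not tested. None of these differences passed the threshold in the fit reported.

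Quantile normalization moved the median of all genes by -0.101 in WT-labelled and -0.149 in KO-labelled mice and the share of higher calls to 46.1% and 43.3%, from 58.8% and 60.5%. Depth behind FPKM is unknown.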
